A study of Mus musculus with 2 samples.

Results

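The genes described are 10 enzymes and regulators of de novo lipogenesis, the synthesis of fatty acids from carbohydrate carbon: Fasn, Acaca, Acacb, Acly, Scd1, Elovl6, Me1, Thrsp, Srebf1 and Mlxipl. They were taken by name, for their known roles, and all 10 were found among the 18193 genes that the array names. They have 23 of the 45037 probe sets, a probe set being a group of short probes against the same transcript. Mouse liver was examined after tail vein injection of adenovirus. Livers of C57BL/6J mice aged 2 months were collected on day 3 from animals given Ad-PDK4, a vector that overexpresses pyruvate dehydrogenase kinase 4, or Ad-control, an empty vector, at 1000000000 plaque-forming units per mouse. Livers of 3 Ad-PDK4 mice and of 4 Ad-control mice were pooled, and 10 ug of RNA from each pool was labelled and measured on 1 Affymetrix array. Mice of both groups carried adenovirus, and no uninfected mice were analysed here. With n = 1 pool per group, the variation between animals is not known, no test was possible, and each difference below describes these pools.

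The pathway begins in the mitochondrion, where the pyruvate dehydrogenase complex turns pyruvate into acetyl-CoA. Citrate carries that acetyl-CoA to the cytosol, where Acly releases it, Acaca makes it into malonyl-CoA and Fasn builds palmitate with NADPH that Me1 helps to supply. Elovl6 lengthens palmitate and Scd1 introduces a double bond. In liver the genes are raised by feeding, through the insulin-responsive factor SREBP1c (from Srebf1) and the glucose-responsive factor ChREBP (from Mlxipl). PDK4 phosphorylates the pyruvate dehydrogenase complex and so inactivates it, which places the kinase upstream of the acetyl-CoA that this pathway uses.

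The promoter sequences of the lowest and the highest members are shown first, since these genes mark the ends of the range described below: Fasn and Acacb were the lowest, Mlxipl and Me1 the highest. Each is the 250 bases before a start that the RefSeq promoter table (GRCm38.p6) lists for the gene, 5′ to 3′ on the gene's strand. For Mlxipl and Me1 that start is the outer end of the gene in RefSeq, and for Fasn and Acacb it lies inside the gene's extent. Mlxipl and Me1 have another start in the same table, which is not printed. Fasn lies at chr11:120824548-120824797 on the minus strand, Acacb at chr5:114165268-114165517 on the plus strand, Mlxipl at chr5:135089640-135089889 on the plus strand and Me1 at chr9:86695915-86696164 on the minus strand. Capitals mark matches, on either strand, to the NF-Y box CCAAT, the GC box GGGCGG and the E-box CACGTG.
Fasn: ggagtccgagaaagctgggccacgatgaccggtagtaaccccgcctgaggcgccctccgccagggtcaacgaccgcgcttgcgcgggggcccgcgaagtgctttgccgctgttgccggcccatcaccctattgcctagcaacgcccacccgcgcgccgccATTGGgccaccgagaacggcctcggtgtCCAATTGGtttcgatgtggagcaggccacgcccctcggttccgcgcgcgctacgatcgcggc
Acacb: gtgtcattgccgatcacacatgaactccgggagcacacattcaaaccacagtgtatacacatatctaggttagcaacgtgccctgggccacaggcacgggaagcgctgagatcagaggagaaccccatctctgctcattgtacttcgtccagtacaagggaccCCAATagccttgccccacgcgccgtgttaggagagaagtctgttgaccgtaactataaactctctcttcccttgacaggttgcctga
Mlxipl: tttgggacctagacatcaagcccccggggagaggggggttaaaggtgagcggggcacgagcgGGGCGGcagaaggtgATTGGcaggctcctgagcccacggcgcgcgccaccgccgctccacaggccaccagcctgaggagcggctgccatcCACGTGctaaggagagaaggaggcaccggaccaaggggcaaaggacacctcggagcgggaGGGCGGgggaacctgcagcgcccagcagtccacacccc
Me1: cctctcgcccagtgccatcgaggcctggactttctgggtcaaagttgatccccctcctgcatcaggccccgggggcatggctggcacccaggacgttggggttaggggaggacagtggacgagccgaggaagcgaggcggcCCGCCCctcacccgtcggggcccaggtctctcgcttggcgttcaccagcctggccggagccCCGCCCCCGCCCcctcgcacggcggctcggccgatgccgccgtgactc

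Motif matches differed among the members. The 9 members with a sequence in the table have 13 windows in all. CCAAT was in 7 of these 13 windows, belonging to Acacb, Fasn, Me1, Mlxipl, Srebf1 and Thrsp, and in 33.8% of all 32851 promoter windows of the same length. Fasn had 3 matches, at 90 to 86, 62 to 58 and 59 to 55 bases before the start shown, and Thrsp had 2. The GC box was in 5 of the 13 windows, belonging to Acly, Me1, Mlxipl and Srebf1, and in 32.7% of all windows, and the single window of Acly had 4 matches. The E-box, which ChREBP and SREBP1c can bind, was in 1 of the 13 windows, that of Mlxipl, 98 to 93 bases before the start shown, and in 6.02% of all windows. A short form of the sterol regulatory element, TCACNCCAC, was matched once, in the other window of Mlxipl, and occurred in 1.05% of all windows. Its stricter form TCACCCCAC had 0 matches in the members' windows and occurred in 0.496% of all windows. No window of Fasn, Acaca, Acacb or Srebf1 is placed at the outer end of its gene in RefSeq. The same holds for the other window of Me1 and of Mlxipl. Scd1 had no window, and sequence outside the windows was not searched. These counts therefore do not show that a member lacks an element. Of the 9 members placed by the same source, 4 (Fasn, Acaca, Acly and Srebf1) are on chromosome 11, which held 8.28% of the measured genes that could be placed. The 701 measured genes of that chromosome had a median log2 difference of 0.026.

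The deposited values are linear signal intensities, scaled so that the mean without the extreme 2% at each end is 500 on each array. A probe set was taken as measured if its signal reached the median of its array (the floor), 99.9 for Ad-PDK4 and 93.4 for Ad-control. Differences are log2 values, Ad-PDK4 minus Ad-control, centred on the median of the 20151 probe sets measured on both arrays. A gene's value is that of its brightest probe set, and a gene was counted as lower or higher at a difference of at least 1.5-fold, which is 0.58 on the log2 scale. The error scale used is how far probe sets for 1 gene disagree, an SD of 0.35 on the log2 scale over 4326 genes. It leaves out error from pooling, labelling and hybridization. Pdk4 itself had a signal of 177 in Ad-PDK4 and 234 in Ad-control livers (log2 difference -0.39), on a single probe set. No source used here states whether that probe set reads the vector's transcript, so the pools are named by their labels. Of 8 hepatocyte markers, 7 were on the array and all 7 were measured on both arrays, between Pck1 (-0.52) and Alb (0.079).

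Most of the lipogenesis genes were lower in Ad-PDK4 livers, nearly all by less than 1.5-fold. Of the 10 genes, 8 had a difference below 0 and 2 had a difference above 0, whereas 48.4% of the 10389 genes measured on both arrays were below 0. The 2078 brightest genes, with signals from 2259, tended downward as a whole: 59.8% of them were below 0, with a median of -0.058. Of the 10 members, 8 belong to that range. The members' median was -0.35, against 0.015 over all measured genes. Only Fasn passed the fold of 1.5, and 0 members were higher by that fold. Among all measured genes 5.2% were lower and 9.21% were higher by it, and among the brightest genes 2.84% were lower and 2.89% higher. A count of 1 in 10 is thus not far from the background, and the shift of the median is a description of genes that share a pathway and a pool.

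**Figure D1:**
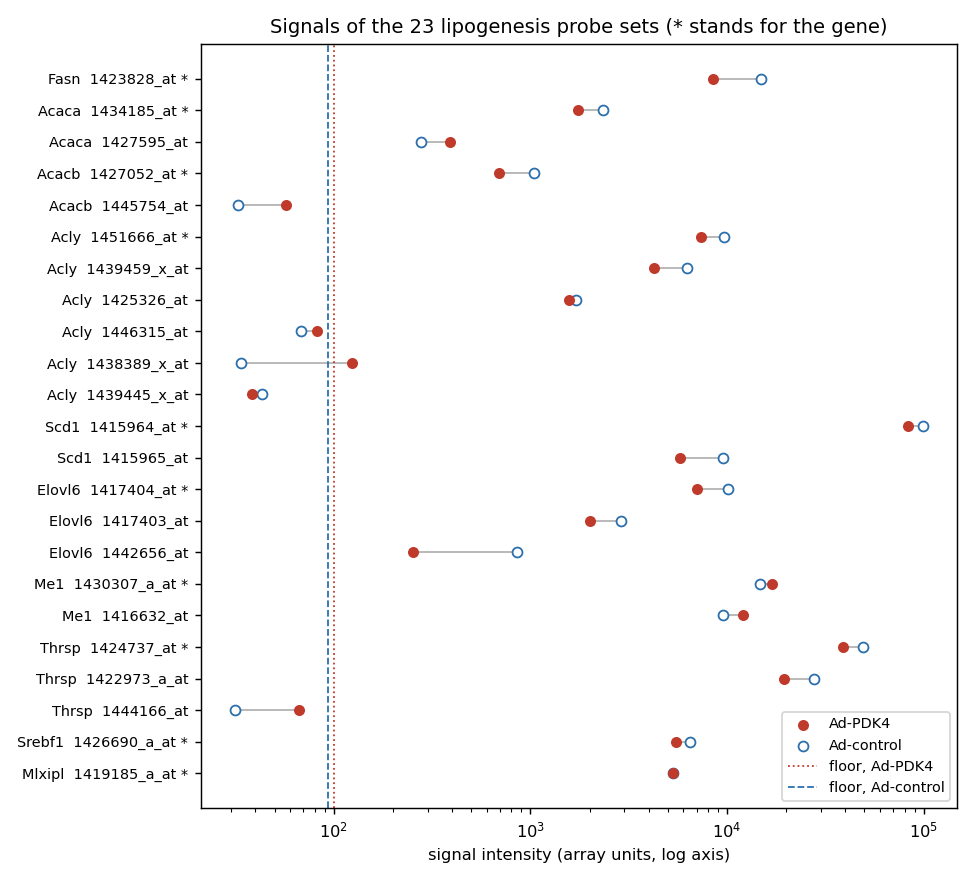
Signal intensity (log axis, array units) of each of the 23 probe sets of the lipogenesis genes in the Ad-PDK4 pool (filled red) and the Ad-control pool (open blue), with the floor of each array as a vertical line. The Fasn points stand at 8480 and 14930, and 4 probe sets lie under both floors.

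Most differences were also below 0 when every probe set was counted. This count includes the probe sets that gave the genes' values above, so it is not separate from the count of genes. Of the 23 probe sets, 18 were measured on both arrays, 4 were under both floors and 1 was above the floor in Ad-PDK4 livers only. Of the 18, 14 had a difference below 0 and 4 above 0, where 50% of all measured probe sets, bright or dim, lay below 0. At least 1.5-fold lower were 3 of the 18, and 6.52% of all measured probe sets. For 6 members more than 1 probe set was measured, and in 5 of these all probe sets lay on the same side of 0. The exception was Acaca. Within these 6 genes the probe sets disagreed with an SD of 0.46, more than the 0.35 found over all genes. Control probe sets for the 3′ and 5′ ends of a transcript describe RNA quality. Their 3′ to 5′ signal ratio for beta-actin was 5.46 in Ad-PDK4 and 4.88 in Ad-control livers. For pyruvate carboxylase it was 7.96 in Ad-PDK4 and 9.26 in Ad-control livers, and for Gapdh 0.81 and 0.78. The part of RNA quality in the disagreement was not tested.

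The enzymes that supply the substrates lay on opposite sides of 0. Acly, ATP citrate lyase, cleaves citrate into cytosolic acetyl-CoA. Its brightest probe set (1451666_at) had a signal of 7362 in Ad-PDK4 and 9606 in Ad-control livers, a log2 difference of -0.37 or 1.29-fold lower. A second probe set (1439459_x_at, a type that may also bind other transcripts) had 4230 in Ad-PDK4 and 6236 in Ad-control livers (-0.55). The next (1425326_at) had 1573 in Ad-PDK4 and 1700 in Ad-control livers (-0.097). All measured probe sets of Acly were thus below 0, from almost no difference to 1.46-fold. Of the brightest genes, 10.5% were as low as the gene value of Acly or lower. Of its dim probe sets, 1438389_x_at had 124 in Ad-PDK4 livers and 33.9, under the floor, in Ad-control livers, a bound of at least 1.34-fold higher.

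Me1, cytosolic malic enzyme, makes pyruvate from malate and yields NADPH. It was the only member with a difference above 0 on more than 1 probe set. Its brightest probe set (1430307_a_at) had 16871 in Ad-PDK4 and 14726 in Ad-control livers, a log2 difference of 0.21 or 1.16-fold higher. The other (1416632_at) had 12130 in Ad-PDK4 and 9586 in Ad-control livers (0.35). The first value is smaller than the SD between probe sets and the second equals it to the digits given, and 16.1% of the 2078 brightest genes were as high as Me1 or higher.

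The acetyl-CoA carboxylases make malonyl-CoA, the committed step. Acaca encodes the cytosolic form, whose malonyl-CoA feeds Fasn. Its brightest probe set (1434185_at) had a signal of 1756 in Ad-PDK4 and 2337 in Ad-control livers, a difference of -0.40 or 1.32-fold lower. The dimmer one (1427595_at) went the other way, with 392 in Ad-PDK4 and 279 in Ad-control livers (0.51). The direction of Acaca is therefore not settled, and the median of its probe sets was 0.054. Of the 2078 genes in the signal range of its brightest probe set (932 to 2259), 9.1% were as low as that probe set or lower. Acacb encodes the form at the mitochondrial outer membrane, whose malonyl-CoA restrains fatty acid import by carnitine palmitoyltransferase. It had 694 in Ad-PDK4 and 1044 in Ad-control livers (1427052_at), a difference of -0.58 or 1.49-fold lower, just short of the fold used for a call. Of the 2077 genes in its range of signal (478 to 932), 4.77% were as low or lower. Its other probe set was under the floor on both arrays.

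Fasn, fatty acid synthase, was the lowest member. Its only probe set (1423828_at) had a signal of 8480 in Ad-PDK4 and 14930 in Ad-control livers. The log2 difference of -0.80 is 1.74-fold lower and 2.28 times the SD between probe sets in size. Fasn ranked 207 from the lowest of 10389 genes, and 1.01% of the 2078 brightest genes were as low or lower. With a single probe set, no other measurement of this transcript was at hand.

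**Figure D2:**
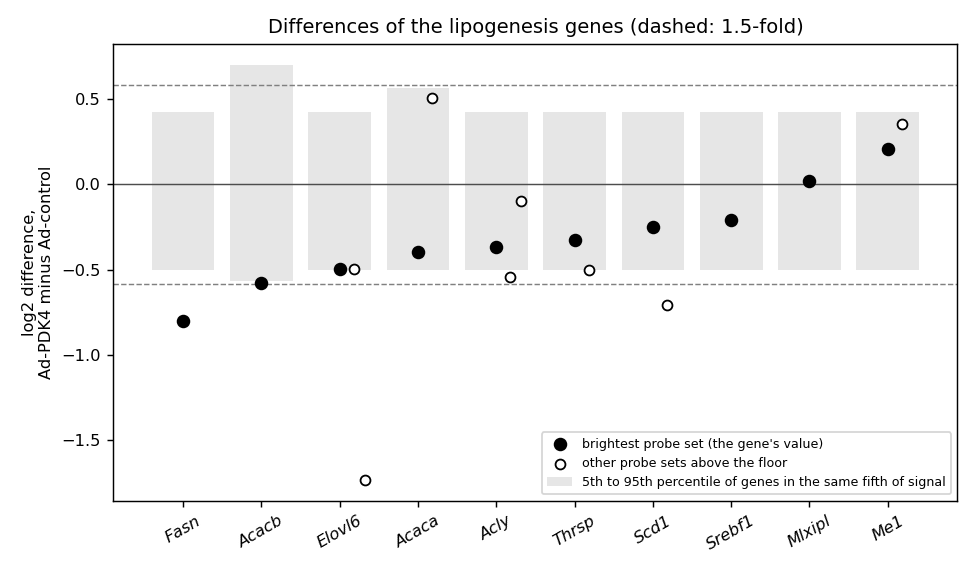
Log2 difference (Ad-PDK4 minus Ad-control) of each measured probe set of the lipogenesis genes, ordered by the gene's value. Filled points are the brightest probe set, open points the others, and grey bars span the 5th to the 95th percentile of genes in the same range of signal. Fasn (-0.80) lies below its bar, Acacb (-0.58) just below its own, and the gene value of Elovl6 (-0.50) at the lower edge of its own. The lowest point is a dimmer Elovl6 probe set (-1.73).

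The enzymes acting on palmitate were lower on every measured probe set. Elovl6, the elongase that makes stearate from palmitate, had 7062 in Ad-PDK4 and 10071 in Ad-control livers on 1417404_at. On 1417403_at it had 2018 in Ad-PDK4 and 2877 in Ad-control livers. Both gave a difference of -0.50, or 1.41-fold lower. Of the brightest genes, 5.1% were as low as the gene value of Elovl6 or lower. The third probe set (1442656_at) had 254 in Ad-PDK4 and 852 in Ad-control livers, a difference of -1.73. At 3.32-fold lower it was the largest difference among the members' probe sets, and it was not shared in size by the others. The part of the transcript that it reads is not stated in the sources used here.

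Scd1, the main stearoyl-CoA desaturase of mouse liver, had 82868 in Ad-PDK4 and 99333 in Ad-control livers on 1415964_at, a difference of -0.25. That signal ranks 27 of 45037 probe sets in Ad-PDK4 and 18 in Ad-control livers. On 1415965_at it had 5780 in Ad-PDK4 and 9537 in Ad-control livers, a difference of -0.71 or 1.63-fold lower. The dimmer probe set thus passed the 1.5-fold mark and the brighter one did not. On the brighter one the difference was smaller than the SD between probe sets, and 21.9% of the brightest genes were as low or lower. Whether signals so near the top of the scale understate differences was not tested.

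The 3 regulators ranged from -0.33 to 0.021. Thrsp, also called Spot 14, is a small protein that promotes hepatic fatty acid synthesis and responds to thyroid hormone and carbohydrate. It had 38772 in Ad-PDK4 and 49169 in Ad-control livers on 1424737_at (-0.33), and 19417 in Ad-PDK4 and 27798 in Ad-control livers on 1422973_a_at (-0.50). Its remaining probe set was under both floors. Srebf1, the gene of the SREBP1 transcription factors, had 5532 in Ad-PDK4 and 6469 in Ad-control livers (1426690_a_at), a difference of -0.21. No source used here states whether this probe set separates the 1a and 1c transcripts. Mlxipl, the gene of ChREBP, had 5337 in Ad-PDK4 and 5315 in Ad-control livers (1419185_a_at), a difference of 0.021. The gene values of all 3 regulators are smaller than the SD between probe sets. Of the brightest genes, 13.5% were as low as Thrsp or lower and 26.6% as low as Srebf1 or lower. As high as Mlxipl or higher were 37.5%.

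**Figure D3:**
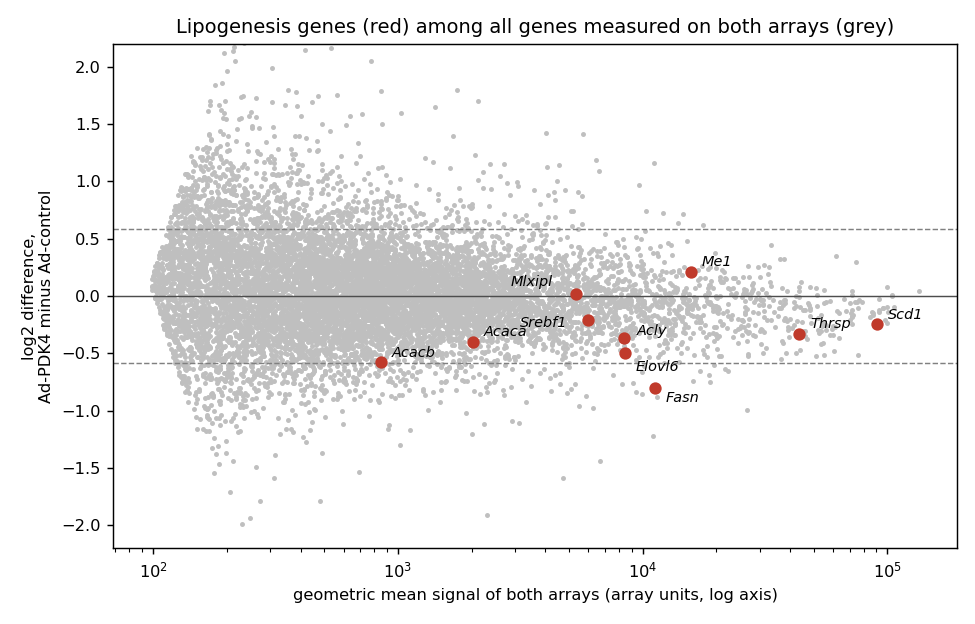
Log2 difference (Ad-PDK4 minus Ad-control) against the geometric mean signal (log axis, array units) for the genes measured on both arrays, with the 10 lipogenesis genes in red; dashed lines mark 1.5-fold, and 53 genes lie outside the vertical range shown. Members sit on the lower side of the cloud except Me1 and Mlxipl, and Fasn stands beneath the bulk of genes of its brightness.

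The size of each difference depends on what the arrays are centred on, but the distances between members do not where all probe sets shift together. Fasn and Me1 were 1.01 apart on the log2 scale, so the ratio of the Fasn signal to the Me1 signal was 2.02-fold lower in Ad-PDK4 livers. Fasn and Me1 are the lowest and the highest member, so this distance is the largest among the members. All pairs given here were chosen with the values known. Against Mlxipl the Fasn ratio was 1.77-fold lower, against Srebf1 1.51-fold, against Scd1 1.47-fold, and against Acly 1.35-fold. Relative to Me1 the ratio was 1.72-fold lower for Acacb and 1.63-fold lower for Elovl6. All these ratios use the brightest probe set of each gene, and other probe sets would give other distances. The dimmer probe set of Scd1 was at -0.71, close to Fasn (-0.80). The other measured probe sets of Acly were at -0.55 and -0.097.

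Both kinds of added controls lay below the array median. The 18 probe sets of the hybridization controls, bacterial and phage sequences added before hybridization, had a median log2 difference of -0.26 and ranged from -0.49 to -0.072. The 24 probe sets of the poly-A controls, added as RNA in amounts that no source used here states, had one of -0.54 and ranged from -0.96 to 0.20. Centred on the hybridization controls, the median of the members was -0.093, Fasn was at -0.55 and Scd1 (0.0091) and Srebf1 (0.045) were above 0. Centred on the poly-A controls, the members' median was 0.19, 2 members (Fasn at -0.26 and Acacb at -0.033) were below 0, and Me1 (0.75) passed 1.5-fold. The median of all measured genes moved along, to 0.27 with the hybridization and 0.56 with the poly-A controls, and stayed above that of the members. Statements that a member was lower therefore are relative to the rest of each pool's transcripts, and only Fasn and Acacb were below 0 under every centring tried. Me1 and Mlxipl were above 0 under every centring.

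**Figure D4:**
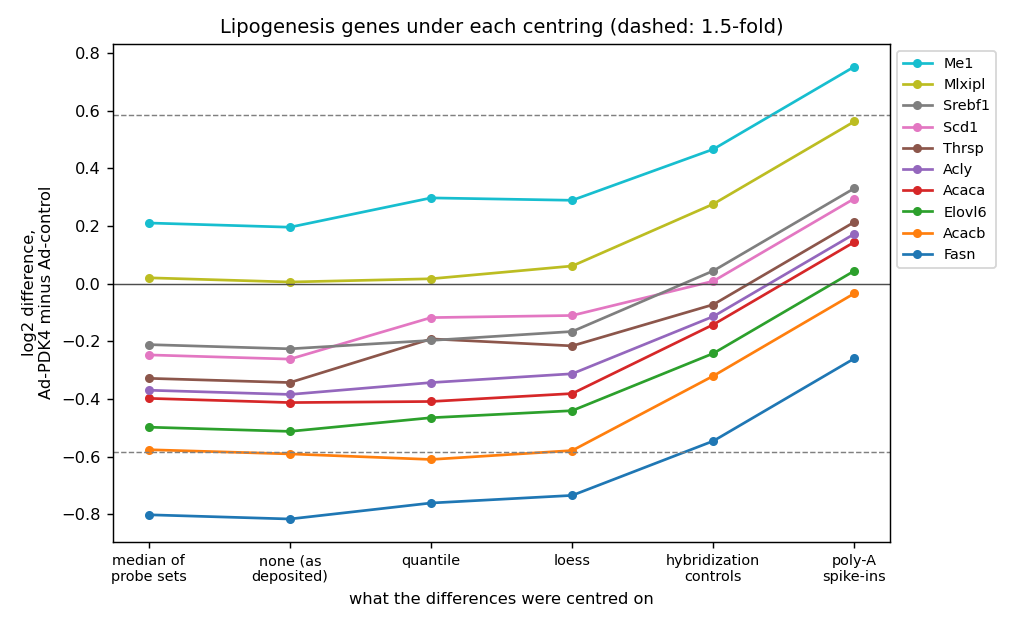
Log2 difference (Ad-PDK4 minus Ad-control) of each lipogenesis gene with the arrays centred in 6 ways. Lines join the values of a gene; Fasn is lowest and Me1 highest throughout, and the whole group moves upward when centred on the hybridization or the poly-A controls.

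The genes around the pathway were compared in 7 lists of 93 genes, of which 86 were on the array. No list had a median as low as that of the members. Supply of NADPH and cytosolic acetyl-CoA had a median of -0.024 over 10 measured genes, with 1 higher and 0 lower. Its highest were Pgd (0.72), 6-phosphogluconate dehydrogenase of the pentose phosphate pathway, and Cs (0.52), citrate synthase. Its lowest were Idh1 (-0.34), cytosolic isocitrate dehydrogenase, and Tkt (-0.15), transketolase. The 4 probe sets of Pgd ranged from 0.15 to 0.72, and without those of the _x_at and _s_at types its list had 0 genes past 1.5-fold. Those of Cs ranged from 0.15 to 0.52. Pgd and Me1, both sources of NADPH, thus lay above 0 while Idh1 lay below.

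The list of other fatty acid elongation, desaturation and activation genes had a median of -0.086, with 0 of 13 past 1.5-fold in either direction. Elovl2 (-0.54) and Elovl5 (-0.33), elongases of polyunsaturated fatty acids, were the lowest. Scd2 (0.43), a desaturase better known from brain, and Hsd17b12 (0.36), a reductase of the elongation cycle, were the highest. Triglyceride synthesis had a median of 0.071 over 9 genes measured on both arrays, with 1 higher and 0 lower. A further 3 genes of the list were measured on 1 array and have bounds on the log2 scale: Mogat1, a monoacylglycerol acyltransferase, at least 1.27 (223 in Ad-PDK4 livers and 45.6, under the floor, in Ad-control livers), Lpin3 at least 0.36, and Pnpla3, a patatin-like lipase and acyltransferase, -0.75 or lower (93.7, under the floor, in Ad-PDK4 livers and 170 in Ad-control livers). They are outside the rule for named genes and were chosen after their values were seen. Lpin1 (-0.58), a phosphatidate phosphatase, was just short of the 1.5-fold mark, and Gpam (-0.070), the first acyltransferase, was next. On their other probe sets the order was reversed, with Lpin1 at -0.20 and Gpam at -0.59. Dgat1 (0.61), an acyltransferase of the last step, and Agpat2 (0.39) were the highest. The only measured probe set of Dgat1 is of the _s_at type, and without it 0 genes measured on both arrays were higher.

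**Figure D5:**
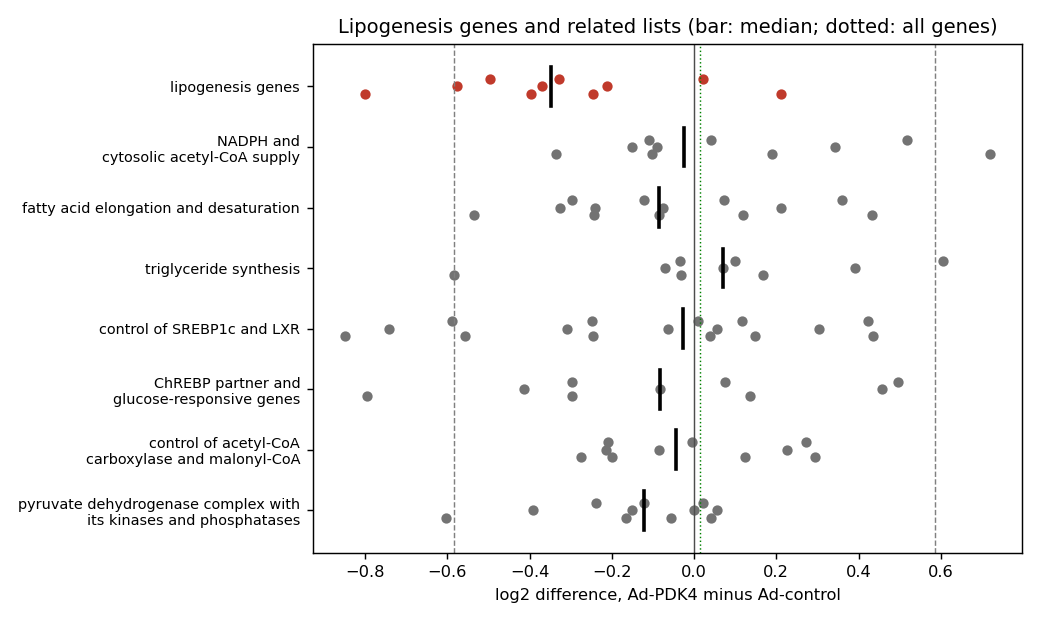
Log2 differences (Ad-PDK4 minus Ad-control) of the 10 lipogenesis genes (red) and of the measured genes of 7 related lists (grey), with the median of each as a black bar, all genes as a dotted line and 1.5-fold as dashed lines. The lipogenesis median stands at -0.35 and those of the lists between -0.12 and 0.071.

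Genes that control SREBP1c and its partners had a median of -0.027 over 16 measured genes, with 3 lower and 0 higher. With loess centring, a 70th-percentile floor or the median over probe sets 2 were lower. Centred on the hybridization controls 1 was lower, and on the poly-A controls 0. Insig1, which holds SREBP in the endoplasmic reticulum and is itself an SREBP target, had 3633 in Ad-PDK4 and 6610 in Ad-control livers (-0.85). Usf2, an E-box factor, was at -0.74 with its other probe set at -0.24, and Ppargc1b, a coactivator of SREBP1 that stands next in the list, was at -0.59. The highest were Nfyc (0.44), a subunit of the factor that binds CCAAT, and Ncoa1 (0.42), whose other measured probe set was at -0.0064. Nr1h3, the liver X receptor that raises Srebf1 transcription, was at 0.040, and Scap, the SREBP escort protein, at 0.0091. Ppargc1b, Nr1h3 and Scap were named after their values were seen.

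ChREBP partner and glucose-responsive genes had a median of -0.082 over 9 measured genes, with 1 lower and 0 higher. Txnip, a glucose-induced thioredoxin-binding protein, was the lowest (-0.80, 2187 in Ad-PDK4 and 3833 in Ad-control livers), followed by the glucose transporter Slc2a2 (-0.41). G6pc (0.50), glucose-6-phosphatase, and Mlx (0.46), the binding partner of ChREBP, were the highest. The other probe set of Mlx was at 0.048. Genes that control acetyl-CoA carboxylase and malonyl-CoA had a median of -0.045, with 0 of 10 past 1.5-fold. The lowest were Stk11 (-0.28), the kinase LKB1, and Mid1ip1 (-0.21), a paralog of Thrsp that promotes carboxylase polymerization. Prkaa1 (0.29) and Prkab1 (0.27), subunits of AMP-activated protein kinase, were the highest. The other measured probe set of Prkab1 went the other way (-0.69). Prkaa1 was near the floors, with 133 in Ad-PDK4 and 109 in Ad-control livers. The pyruvate dehydrogenase complex with its kinases had a median of -0.12, with 1 of 11 lower (Pdk1, -0.60), followed by Pdk4 (-0.39), and 0 higher. With loess centring 0 genes of that list were lower. Its highest members were Pdp2 (0.057) and Dlat (0.041).

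Markers of other tissues differed between the pools, and in bulk RNA fewer cells of a type cannot be told apart from less RNA per cell. White fat also expresses most of these genes. Of 8 adipocyte markers 6 were on the array and 4 were measured on both. These 4 ranged from -0.018 to 0.50, the latter for Retn, with a median of 0.058. The summed signal was 2565 in Ad-PDK4 and 2369 in Ad-control livers. Lep was under both floors and Adipoq had 207 in Ad-PDK4 and 193 in Ad-control livers. Cidec, a lipid droplet protein, had 237 in Ad-PDK4 livers and 73.1, under the floor, in Ad-control livers, a bound of at least 1.36 on the log2 scale. Pancreatic acinar markers had a summed signal of 76207 in Ad-PDK4 and 9612 in Ad-control livers, with 8 of 8 measured higher. Markers of proliferating cells had 12395 in Ad-PDK4 and 726 in Ad-control livers, with 5 of 5 higher. Of the other lists, 4 of 5 skeletal muscle markers were lower (summed signal 1496 in Ad-PDK4 and 2735 in Ad-control livers), as were 2 of 5 measured macrophage markers (6169 in Ad-PDK4 and 6986 in Ad-control livers). Endothelial markers had 1 higher and 1 lower of 5 (3364 in Ad-PDK4 and 3706 in Ad-control livers). Of 4 cholangiocyte markers on the array 1 was measured on both, with 184 in Ad-PDK4 and 266 in Ad-control livers. Summed over all 4 the signal was 300 in Ad-PDK4 and 525 in Ad-control livers. Each summed signal here takes in all markers of its list on the array, also those under a floor. Hepatocyte markers had 0 past 1.5-fold and a summed signal of 418840 in Ad-PDK4 and 451017 in Ad-control livers. The part of these markers, and of the unequal pools, in the lipogenesis differences was not tested. Feeding state and hour of sampling, which set the levels of these genes in liver, are not stated in the sources used here.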

How the data were processed

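Total RNA from 1 liver pool per group was hybridized to 1 array each, per the labels' protocols. The deposited values are signal intensities, 1 per probe set, and the software and background correction behind them were not given in the sources used here. Both arrays share a mean of 500 without the extreme 2% at each end. Control probe sets (64) were set aside, and probe sets with 1 gene symbol (34945) were named through the platform annotation and checked against RefSeq (GRCm38.p6). Calculations used Python 3.11.15, pandas 2.3.3, numpy 2.4.6 and statsmodels 0.14.6. Their arithmetic was checked on simulated data with less spread than these arrays, as means over groups of genes. That check does not describe the error of a single gene. Log2 differences were centred by -0.015. No p-value was computed, because each group is 1 array. The number of arrays limits the precision.

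The members, related lists and markers were chosen with earlier results of these data known. The rule was to name all members with every probe set, the 2 highest and 2 lowest measured genes of each related list, and Pdk4. Outside it, Ppargc1b, Nr1h3, Scap, Mogat1, Lpin3 and Pnpla3 were named after their values were seen. Single markers of hepatocytes and adipocytes were also named outside it. No gene was named for likeness to a member, since 2 arrays give 1 difference per gene. Alternatives were a floor at the 30th or 70th percentile, 5 other centrings, the median over probe sets and the removal of _x_at and _s_at probe sets, which may bind other transcripts.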

Additional observations from a re-analysis of the deposited data

How the results depend on the processing

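The members' directions and the median held under all alternatives except those named here. Fasn and Acacb were both at least 1.5-fold lower, 2 members in place of 1, with a 30th-percentile floor, without centring and with quantile normalization, because Acacb stands at the mark. Centred on the hybridization or the poly-A controls 0 members were that low, and on the poly-A controls 1 member (Me1) was that high and the median was 0.19. The members' median otherwise ranged from -0.39 with the median over probe sets to -0.093 with the hybridization controls. Below 0 were 8 members under 6 of the 9 alternatives, 7 with the median over probe sets, where Acaca was at 0.054, 6 with the hybridization and 2 with the poly-A controls. Over 38 results and 9 alternatives, 278 of 342 values stayed within the spread between probe sets or, for counts, within 1.5 times. Of the others, which number 64, 34 came from the poly-A centring. That spread is larger than the differences of several members, so a value could change sign and still be counted as staying. With the hybridization controls Scd1 went from -0.25 to 0.0091 and Srebf1 from -0.21 to 0.045, and both were counted so. Some values could not move, such as those of genes with a single probe set under the median over probe sets. The tally is therefore not a measure of how stable the members' differences are. Counts over all genes followed the floor and the centring: 540 genes were lower and 957 higher, against 1055 and 1730 with a 30th-percentile floor, 243 and 390 with a 70th-percentile floor, 169 and 2202 with the hybridization controls and 41 and 4856 with the poly-A controls. No paired analysis was possible because each group is 1 array. A dim signal sets the limit for the 5 probe sets under a floor, which have no difference or only a bound.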
